A study of Mus musculus with 30 samples.

Results

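This report describes 10 genes that carry an interferon signal through the cell membrane and then limit it, in cultured mouse tumor cells. They were taken as a list of genes by name and role, drawn up with earlier results of these data known, and comprise 4 receptor chains (Ifnar1, Ifnar2, Ifngr1 and Ifngr2), 3 Janus kinases (Jak1, Jak2 and Tyk2) and 3 feedback inhibitors (Socs1, Socs3 and Cish). All 10 were found among the 49315 genes counted, and all 10 were among the 21138 genes kept for testing, which had at least 10 reads combined over the libraries. PolyA RNA was sequenced from 2 tumor cell lines, B16F10 melanoma and 6694c2 pancreatic ductal adenocarcinoma (PDAC), both on the C57BL/6 background. The 6694c2 line came from female mice with a floxed p53 allele, a floxed YFP reporter and Cre driven by the Pdx promoter. Each line was cultured for 24 h with vehicle, 100 ng/mL IFNγ, 1000 U/mL IFNβ or 225 μg/mL of a STING agonist, with 3 libraries in each of the 8 groups. Each tumor type was represented by 1 line, and nothing in the sources used here says that the 3 libraries of a group came from separate cultures. The p-values below therefore measure the spread between these libraries, which may be technical.

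IFNβ, a type I interferon, binds the receptor formed by IFNAR1 and IFNAR2, whose intracellular parts hold the kinases TYK2 and JAK1. IFNγ, the type II interferon, binds IFNGR1, which pairs with IFNGR2, and these chains hold JAK1 and JAK2. The kinases phosphorylate STAT proteins, which enter the nucleus and switch on interferon-response genes. Among the genes switched on in this way are those for SOCS proteins: SOCS1 and SOCS3 bind receptor or kinase and block it, and CISH is a relative best known for limiting STAT5 signals. STING, the sensor of cyclic dinucleotides, leads cells to make type I interferon, so that its agonist can reach the same receptors by way of secreted IFNβ.

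Libraries held 15543131 to 32266795 reads on genes. Per-gene levels are given as CPM (a gene's reads scaled to a common library size, with TMM factors over the 24 libraries), as mean ± SD of 3 libraries. As a check of the treatments, Isg15, a ubiquitin-like interferon-response gene, stood at 48.9 ± 3.57 CPM in B16F10 vehicle, 355.2 ± 5.89 with IFNγ, 717.4 ± 57.4 with IFNβ and 187.5 ± 7.52 with the STING agonist. In 6694c2 the same gene stood at 1.89 ± 0.844, 55.5 ± 4.78, 715.4 ± 48.0 and 2.87 ± 0.192 CPM. All 11 melanocyte markers reached 1 CPM in B16F10, with a summed level of 15723 to 19886 CPM, against 20.7 to 140.5 CPM in 6694c2. In 6694c2, 10 of 12 ductal epithelial markers did so, with a summed level of 12877 to 15172 CPM. Their summed level in B16F10 was 15.3 to 56.2 CPM in the vehicle and interferon libraries and 104.9 to 137.7 CPM with the STING agonist. From genes specific to each line, transcripts of the other line made up a mean of 0.220% to 1.01% of the groups in B16F10, highest with the STING agonist, and 0.233% to 0.566% in 6694c2. Subtracting that share changed no call for the 10 genes. Among all genes it lowered the calls for the STING agonist in B16F10 from 408 higher and 324 lower to 278 and 238. For the STING agonist difference between the lines, 120 higher and 329 lower became 84 and 82. Of 8 B-cell markers, all reached 1 CPM in every group, with summed levels of 22.5 to 104.0 CPM that were highest with IFNγ in each line, and their part in the results was not tested. That list includes Cd74, an interferon-responsive chaperone of antigen presentation. Only 1 of 8 T-cell markers reached 1 CPM, in each group, with Cd8a at 0 throughout, and 1 to 4 of 8 myeloid markers did, with summed levels of 2.51 to 17.1 CPM.

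**Figure D1:**
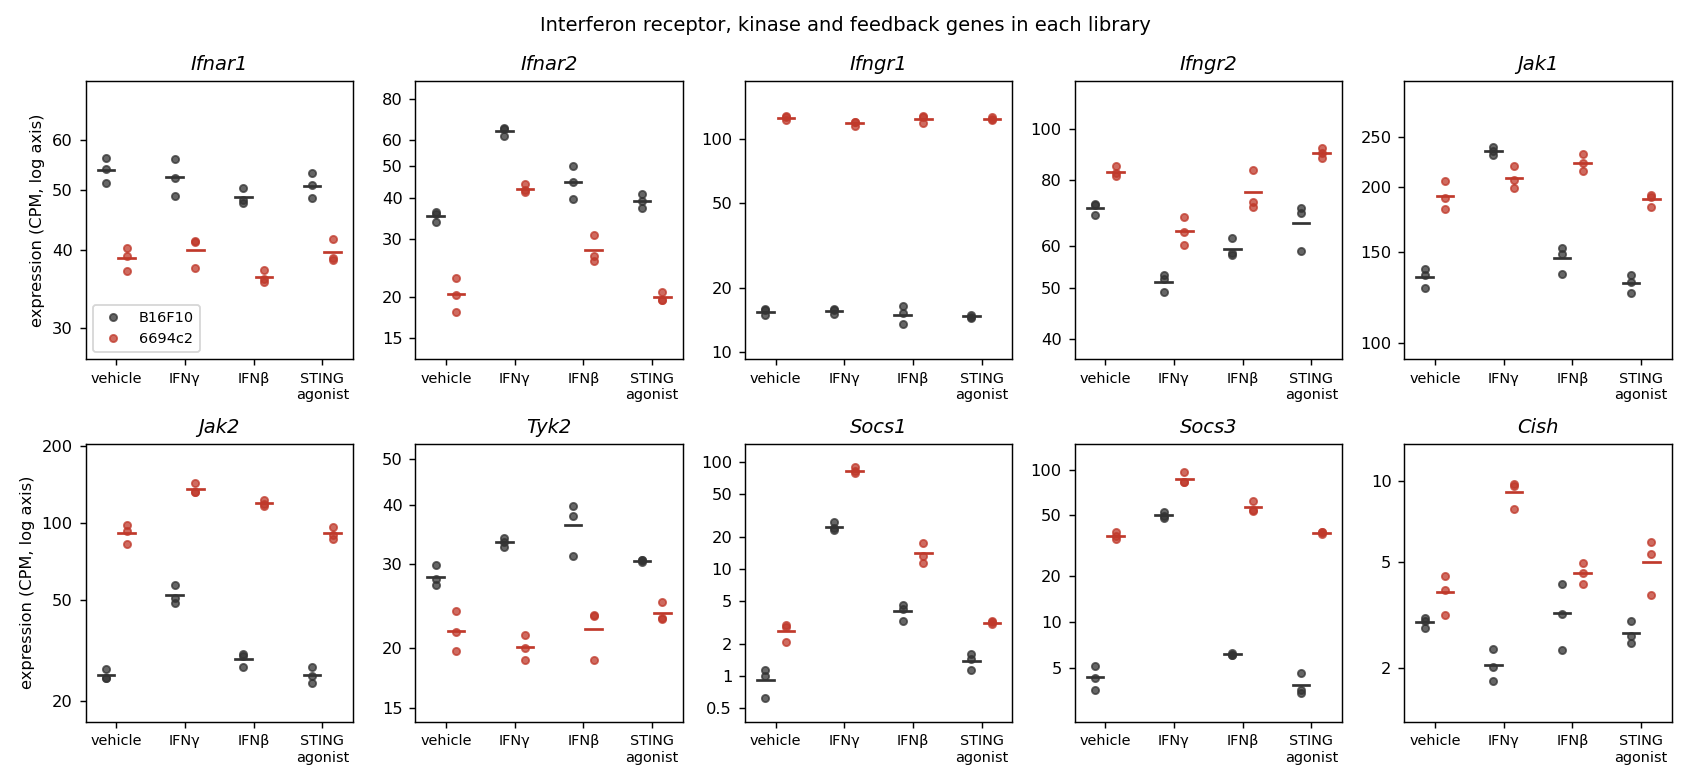
Expression of the 10 genes in each of the 24 libraries, in CPM on a log axis, by treatment (horizontal axis) for B16F10 (black) and 6694c2 (red); points are libraries and bars are means of 3. Ifngr1 lay at 13.5 to 16.4 CPM in all B16F10 libraries and at 114.5 to 128.4 CPM in all 6694c2 libraries, while Socs1 moved from 0.622 to 27.3 CPM within B16F10 and from 2.07 to 88.7 CPM within 6694c2.

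Differences between groups were tested with edgeR's quasi-likelihood test, and a gene was called at a Benjamini-Hochberg adjusted p under 0.05 over all 21138 genes. Each interferon moved at least 5 of the 10 genes in each line. After IFNγ, 6 of the 10 rose and 1 fell in B16F10, where 12% of all genes tested rose and 10.8% fell. In 6694c2, 5 rose and 1 fell after IFNγ, against 7.89% and 5.66% of all genes. After IFNβ, 5 rose and 1 fell in B16F10, against 12.7% and 11.2% of all genes, and 5 rose and none fell in 6694c2, against 10.4% and 7.86%. The median log2 fold change of the 10 genes was 0.52 in B16F10 and 0.36 in 6694c2 after IFNγ, and 0.17 and 0.26 after IFNβ, where the median of all genes lay between 0.000 and 0.019. In bulk RNA, a change in the share of cells that express a gene and a change per cell cannot be told apart. The comparisons with vehicle share their control libraries within a line.

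**Figure D2:**
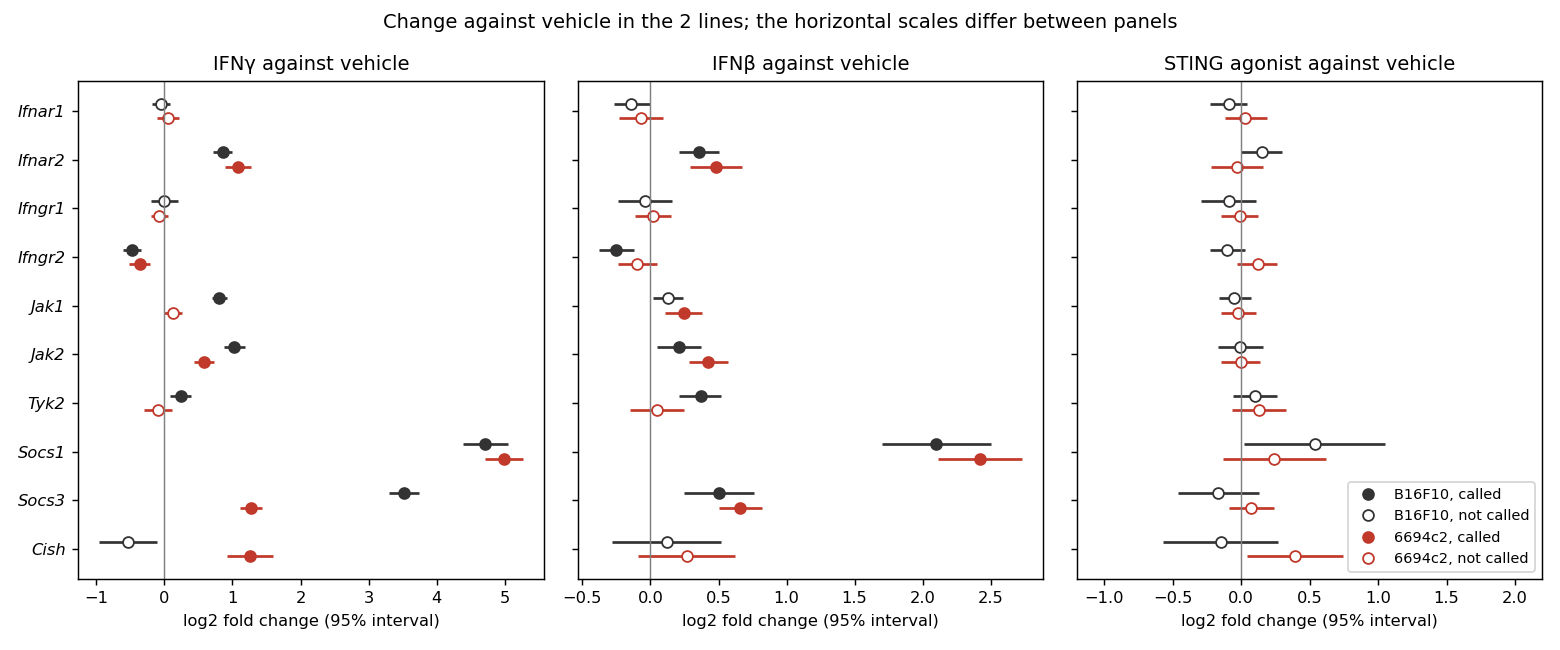
Log2 fold change against vehicle (horizontal axis, with 95% interval) for the 10 genes after IFNγ, IFNβ and the STING agonist in B16F10 (black) and 6694c2 (red); filled points passed an adjusted p of 0.05 in edgeR's quasi-likelihood test and open points did not. Socs1 lay farthest to the right in the interferon panels, at 4.71 and 4.98 after IFNγ and 2.10 and 2.42 after IFNβ, and no point is filled in the STING agonist panel.

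The 2 chains of the type I receptor behaved differently from each other. Ifnar1 (ENSMUSG00000022967, GRCm38 16:91485238-91507441, plus strand), the chain that holds TYK2, was not called after any treatment in either line. It stood at 51.3, 54.0 and 56.1 CPM in the B16F10 vehicle libraries and at 39.2, 40.3 and 37.1 CPM in those of 6694c2, and its group means differed by at most 1.11-fold within a line. The change farthest from 0 was after IFNβ in B16F10, where the log2 fold change was -0.14 (95% interval -0.27 to -0.00, adjusted p = 0.146).

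Ifnar2 (ENSMUSG00000022971, 16:91372783-91405589, plus strand), the chain that holds JAK1 and docks STATs, rose with both interferons in both lines. In B16F10 it was at 35.9, 33.8 and 36.3 CPM with vehicle and at 61.9, 65.6 and 65.0 CPM with IFNγ, a log2 fold change of 0.86 ± 0.072 (SE; adjusted p = 1.24e-26). With IFNβ the B16F10 libraries read 39.7, 44.9 and 50.3 CPM, all above vehicle, a log2 change of 0.36 ± 0.073 (adjusted p = 1.71e-05). In 6694c2 it was at 18, 22.9 and 20.3 CPM with vehicle, at 42.5, 44.1 and 41.7 CPM with IFNγ and at 25.8, 26.8 and 31 CPM with IFNβ. Those groups did not overlap, and the log2 fold changes were 1.08 ± 0.093 (adjusted p = 1.2e-12) and 0.48 ± 0.093 (adjusted p = 0.000106). The rise was larger with IFNγ than with IFNβ in B16F10 (log2 difference, IFNβ minus IFNγ, -0.50, adjusted p = 1.75e-10) and in 6694c2 (-0.60, adjusted p = 1.21e-06). The files annotate 315 exonic bases of Ifnar2 as shared with Gm21970 on the same strand, which had no reads.

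The type II receptor differed between the lines in one chain and between treatments in the other. Ifngr1 (ENSMUSG00000020009, 10:19591949-19610229, plus strand), the ligand-binding chain, was at 15.7, 14.9 and 16 CPM in B16F10 vehicle and at 128.4, 126.8 and 122.4 CPM in 6694c2 vehicle. It was 8.11-fold higher in 6694c2 (log2 3.02 ± 0.069 SE, adjusted p = 1.12e-32). No treatment changed it by a called amount in either line, and its group means differed by at most 1.06-fold within each line. Ifngr2 (ENSMUSG00000022965, 16:91547072-91565169, plus strand), the chain that brings JAK2, fell with IFNγ. In B16F10 it went from 68.6, 71.9 and 72.1 CPM to 51.9, 52.8 and 49.2 CPM (log2 fold change -0.47 ± 0.067 SE, adjusted p = 1.65e-10). In 6694c2 it went from 81.5, 82.6 and 84.9 CPM to 68.0, 60.4 and 63.8 CPM (log2 fold change -0.36 ± 0.073 SE, adjusted p = 0.000312). In neither line did the IFNγ and vehicle libraries overlap. With IFNβ it was lower in B16F10, at 57.6, 58.2 and 62.2 CPM (log2 fold change -0.25 ± 0.066, adjusted p = 0.00132), and in 6694c2 the value of -0.10 (95% interval -0.24 to 0.05, adjusted p = 0.448) was not called. The start or end given for Ifngr2 and for Socs1 in the files differs from GENCODE M21.

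Because the chains of a receptor work in pairs, their levels were also set beside each other per length, as RPKM (CPM divided by exon length in kilobases). In vehicle libraries, Ifngr1 was at 5.45 ± 0.200 RPKM in B16F10 and 44.2 ± 1.09 in 6694c2, against 21.4 ± 0.594 and 25.1 ± 0.529 RPKM for Ifngr2. The ratio of Ifngr2 to Ifngr1 was therefore 3.93 ± 0.206 in B16F10 and 0.567 ± 0.0262 in 6694c2, so that the chain with less mRNA was Ifngr1 in B16F10 and Ifngr2 in 6694c2. With IFNγ the ratio was 2.83 ± 0.0337 and 0.465 ± 0.0188. The ratio of Ifnar2 to Ifnar1 was 1.16 ± 0.0676 with vehicle, 2.18 ± 0.202 with IFNγ and 1.63 ± 0.210 with IFNβ in B16F10, and 0.928 ± 0.101, 1.89 ± 0.0757 and 1.36 ± 0.156 in 6694c2. With the STING agonist this ratio was 1.37 ± 0.110 in B16F10, where the libraries read 1.44, 1.43 and 1.25 and the vehicle libraries 1.24, 1.11 and 1.14, and 0.889 ± 0.0603 in 6694c2. The ratios are given as a description, and no test was run on them.

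**Figure D3:**
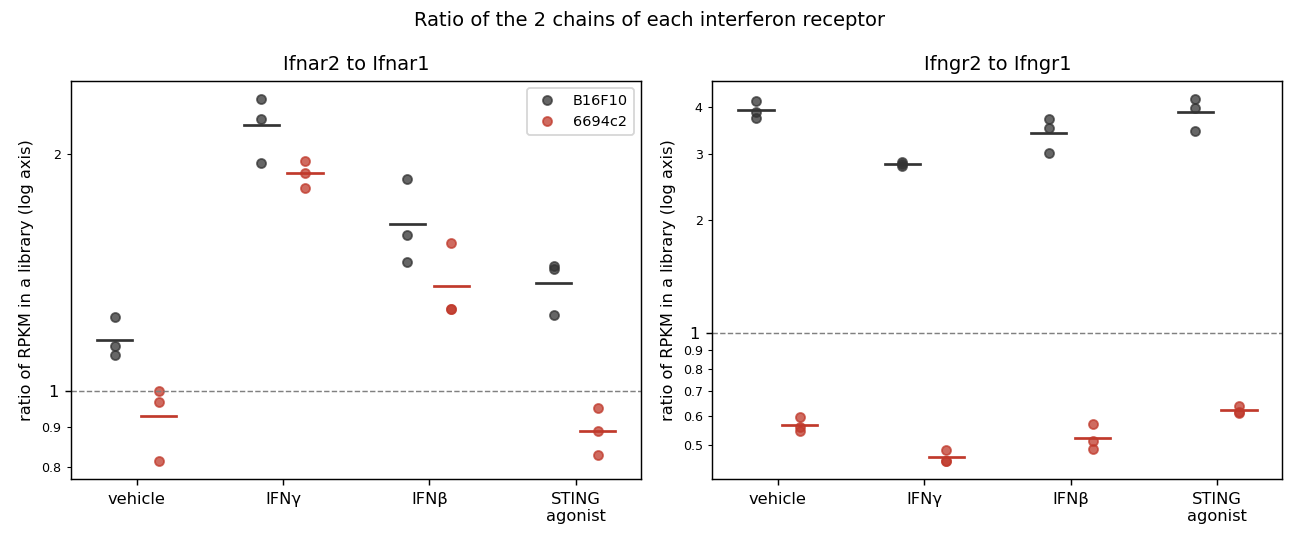
Ratio of the RPKM of the 2 chains of each interferon receptor in each library (log axis; points are libraries, bars are means of 3, dashed line at 1), by treatment, for B16F10 (black) and 6694c2 (red). The Ifngr2 to Ifngr1 ratio lay above 1 in all B16F10 libraries and below 1 in all 6694c2 libraries, and the Ifnar2 to Ifnar1 ratio was highest with IFNγ in both lines.

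Of the kinases, Jak1 (ENSMUSG00000028530, 4:101152367-101265282, minus strand), which serves both receptors, rose with IFNγ in B16F10, from 127.6, 138.9 and 135.4 CPM to 238.9, 231.0 and 235.0 CPM. The log2 fold change was 0.81 ± 0.056 (SE, adjusted p = 3.19e-36). In 6694c2 it was at 205.6, 190.3 and 181.5 CPM with vehicle and at 206.1, 219.9 and 199.2 CPM with IFNγ. These groups overlapped, and the log2 fold change of 0.13 (95% interval -0.01 to 0.26) was not called (adjusted p = 0.246). With IFNβ Jak1 rose in 6694c2 to 222.5, 231.8 and 214.5 CPM (log2 fold change 0.25 ± 0.066, adjusted p = 0.00537). That call was lost without the third vehicle library of 6694c2 (adjusted p = 0.0554). In B16F10 the IFNβ value of 0.13 ± 0.056 was not called (adjusted p = 0.0843), except without the third IFNβ library (adjusted p = 0.00744).

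Jak2 (ENSMUSG00000024789, 19:29251828-29313080, plus strand), the partner of IFNGR2, rose with both interferons. In B16F10 it went from 24.7, 26.8 and 24.6 CPM with vehicle to 50.6, 57.2 and 48.7 CPM with IFNγ (log2 fold change 1.03 ± 0.078 SE, adjusted p = 1.26e-31). With IFNβ it was at 30.7, 30 and 27.1 CPM, all just above vehicle, a log2 change of 0.21 ± 0.081 (adjusted p = 0.0376). This call was lost under 9 of 15 other settings, where the adjusted p reached 0.154. In 6694c2 it was at 98.5, 92.9 and 82.5 CPM with vehicle, at 131.9, 143.7 and 132.1 CPM with IFNγ and at 123.4, 119.0 and 116.6 CPM with IFNβ. The log2 fold changes were 0.59 ± 0.071 (adjusted p = 1.39e-08) and 0.42 ± 0.071 (adjusted p = 1.01e-05), and neither interferon group overlapped with vehicle.

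Tyk2 (ENSMUSG00000032175, 9:21104068-21131243, minus strand), the partner of IFNAR1, rose with both interferons in B16F10. It was at 29.9, 27.9 and 27.1 CPM with vehicle, at 33.5, 32.6 and 34.1 CPM with IFNγ and at 31.2, 39.9 and 37.9 CPM with IFNβ. The log2 fold changes were 0.24 ± 0.080 (adjusted p = 0.0176) and 0.37 ± 0.079 (adjusted p = 4.47e-05). The IFNγ call was lost in a fit of all 24 libraries and without the second or the third vehicle or the third IFNγ library, with adjusted p up to 0.101. In 6694c2 Tyk2 lay between 18.9 and 25.0 CPM in all 12 libraries, with log2 fold changes of -0.09 (95% interval -0.30 to 0.11) after IFNγ and 0.05 (-0.15 to 0.25) after IFNβ. The difference between the lines was not called for IFNγ (log2 -0.35, 95% interval -0.61 to -0.08, adjusted p = 0.0946) and is given for IFNβ with the other line comparisons. The exons of Tyk2 share 554 bases with 1700084C06Rik on the other strand, which had at most 11 reads in a library. Whether the counting used strand is not given in the sources used here.

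On the log2 scale, the feedback inhibitors held the largest rise with each interferon (Socs1). They also held the largest difference between the lines in the change with IFNγ (Socs3). On the CPM scale, Jak1 (101.0), Socs3 (45.7), Ifnar2 (28.8) and Jak2 (26.8) rose more than Socs1 (23.8) with IFNγ in B16F10. With IFNγ in 6694c2 Socs1 rose most in CPM (80.2). With IFNβ, Jak1, Ifnar2, Tyk2 and Jak2 rose more than Socs1 in B16F10, and Jak1, Jak2 and Socs3 in 6694c2. These CPM rises were not tested against each other. The Socs3 difference between the lines turned sign on the CPM scale, at about the size of its SE (4.99 ± 4.75 CPM). Promoters of the feedback inhibitors are shown because these genes are read out by STAT proteins at the DNA. STAT dimers formed after IFNγ bind the gamma-activated site (GAS), searched here as TTCNNNGAA, and the STAT and IRF9 complex formed after type I interferon binds the interferon-stimulated response element (ISRE), searched as GAAA, any 2 bases and GAAA again. Both strands were searched in windows of 250 bases before to 50 bases after the RefSeq transcript start of each gene (GRCm38.p6). For Socs3 and Cish that start and the window lay inside the gene as annotated for counting. A window was found for all 10 genes, and 4 windows held the GAS letters and 1 the ISRE letters, against 8.30% and 3.44% of 32851 windows of the genome. The stretches below run 5′ to 3′ on the strand of the gene, end at the transcription start except for Cish, which runs 20 bases past it, and have the motif letters in capitals. Socs1 is chr16:10785537-10785786 (minus strand), Socs3 chr11:117969367-117969616 (minus strand), Cish chr9:107296409-107296678 (plus strand) and Ifnar2 chr16:91372533-91372782 (plus strand).
Socs1: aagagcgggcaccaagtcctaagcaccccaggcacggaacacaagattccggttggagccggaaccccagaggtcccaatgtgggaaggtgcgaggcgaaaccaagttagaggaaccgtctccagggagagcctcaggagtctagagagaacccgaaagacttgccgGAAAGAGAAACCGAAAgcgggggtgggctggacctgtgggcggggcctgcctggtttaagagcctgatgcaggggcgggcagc
Socs3: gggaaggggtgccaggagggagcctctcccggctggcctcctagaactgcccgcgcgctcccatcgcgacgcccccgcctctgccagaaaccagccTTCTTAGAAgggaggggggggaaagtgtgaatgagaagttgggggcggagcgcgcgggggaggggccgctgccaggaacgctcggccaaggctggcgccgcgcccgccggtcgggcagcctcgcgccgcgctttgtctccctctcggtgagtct
Cish: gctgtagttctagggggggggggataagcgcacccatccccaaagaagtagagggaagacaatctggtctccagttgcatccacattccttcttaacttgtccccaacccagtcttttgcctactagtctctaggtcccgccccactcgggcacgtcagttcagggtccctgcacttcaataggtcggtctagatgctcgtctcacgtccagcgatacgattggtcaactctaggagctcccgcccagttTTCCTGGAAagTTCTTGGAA
Ifnar2: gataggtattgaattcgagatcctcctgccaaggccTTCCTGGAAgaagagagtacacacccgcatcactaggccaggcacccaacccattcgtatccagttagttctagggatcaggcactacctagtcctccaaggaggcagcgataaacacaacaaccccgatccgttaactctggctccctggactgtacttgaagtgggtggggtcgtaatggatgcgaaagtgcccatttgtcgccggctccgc
In Socs1 the 2 ISRE matches began 83 and 77 bases before the start and overlap each other. Socs3 held 1 GAS match 154 bases before its start, and Ifnar2 1 match 214 bases before. In Cish, 2 GAS matches began at bases 1 and 12 of the transcript. Ifnar1, which was not called after any treatment, also held a GAS match, 5 bases before its start, and no match lay in the windows of Ifngr1, Ifngr2, Jak1, Jak2 or Tyk2. A match describes letters in the window and was not tested for binding.

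Socs1 (ENSMUSG00000038037, 16:10783808-10785536, minus strand), which inhibits the kinases directly, had the largest log2 fold change of the 10 genes with each interferon in both lines. In B16F10 it went from 0.622, 1.0 and 1.13 CPM with vehicle to 22.9, 27.3 and 23.9 CPM with IFNγ, a rise of 26.1-fold (log2 4.71 ± 0.17 SE, adjusted p = 6.66e-96). In 6694c2 it went from 2.86, 3.01 and 2.07 CPM to 81.8, 78.1 and 88.7 CPM, a rise of 31.5-fold (log2 4.98 ± 0.14, adjusted p = 7.28e-30). With IFNβ it reached 4.2, 3.26 and 4.57 CPM in B16F10 (log2 fold change 2.10 ± 0.20, adjusted p = 1.28e-20) and 11.4, 17.6 and 13.2 CPM in 6694c2 (2.42 ± 0.15, adjusted p = 4.67e-17). All interferon libraries lay above all vehicle libraries of their line, and the IFNβ level stayed below the IFNγ level by 6.11-fold in B16F10 (adjusted p = 5.24e-60) and 5.87-fold in 6694c2 (adjusted p = 3.17e-23). Per length, Socs1 with IFNγ was at 20.2 ± 1.90 RPKM in B16F10 and 67.9 ± 4.42 RPKM in 6694c2, against 10.4 ± 0.888 and 27 ± 1.34 RPKM for its target Jak2. With vehicle the order was the other way, at 0.754 ± 0.218 and 2.17 ± 0.414 RPKM for Socs1 and 5.05 ± 0.249 and 18.1 ± 1.62 RPKM for Jak2. Against Jak1, the other kinase at the IFNγ receptor, the order with IFNγ differed between the lines. Jak1 was at 32.5 ± 0.543 RPKM in B16F10, above Socs1, and at 28.8 ± 1.46 RPKM in 6694c2, below it.

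Socs3 (ENSMUSG00000053113, 11:117966079-117970047, minus strand), known for limiting signals of the gp130 family of receptors as well as JAKs, began from very different levels in the lines. It was at 4.31, 5.17 and 3.60 CPM in B16F10 vehicle and at 36.4, 34.8 and 38.7 CPM in 6694c2 vehicle. With IFNγ it reached 52.5, 48.4 and 49.4 CPM in B16F10 (log2 fold change 3.52 ± 0.11 SE, adjusted p = 3.01e-110) and 83.1, 82.8 and 96.2 CPM in 6694c2 (1.27 ± 0.081, adjusted p = 7.29e-17). With IFNβ it was at 6.05, 6.29 and 6.10 CPM in B16F10 (0.50 ± 0.13, adjusted p = 0.00113) and at 54.4, 62.1 and 53.3 CPM in 6694c2 (0.66 ± 0.081, adjusted p = 1.62e-08). Every interferon library lay above the vehicle libraries of its line. The small rise with IFNβ in B16F10 was not called without the third vehicle library (adjusted p = 0.0517).

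Cish (ENSMUSG00000032578, 9:107296026-107302784, plus strand) was expressed at low levels, from 1.78 to 4.12 CPM in B16F10 and from 3.17 to 9.78 CPM in 6694c2. In 6694c2 it rose with IFNγ, from 4.44, 3.91 and 3.17 CPM to 9.78, 7.91 and 9.59 CPM (log2 fold change 1.26 ± 0.17 SE, adjusted p = 1.19e-07). In B16F10 the IFNγ libraries read 2.35, 1.78 and 2.02 CPM, all below the vehicle libraries at 2.82, 3.01 and 3.09 CPM. That log2 fold change of -0.53 (95% interval -0.95 to -0.11) missed the threshold (adjusted p = 0.0593), and did so under all 15 other settings. With IFNβ the values were 0.12 (-0.28 to 0.52) in B16F10 and 0.27 (-0.09 to 0.62) in 6694c2, neither called. Exons of Cish share bases with Gm17041 and Gm17040 on the other strand, which had at most 0 and 4 reads in a library.

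Which interferon moved the genes further was tested directly within each line, at 1 dose of each agent, and the doses are not on a common scale. In B16F10, 5 of the 10 genes were lower with IFNβ than with IFNγ (Ifnar2, Jak1, Jak2, Socs1 and Socs3) and 2 were higher (Ifngr2 and Cish), against 7.85% and 6.65% of all genes tested. In 6694c2, 4 were lower (Ifnar2, Socs1, Socs3 and Cish) and 1 higher (Ifngr2), against 6.57% and 7.30% of all genes. The largest difference in B16F10 was that of Socs3, 8.08-fold lower with IFNβ (log2 -3.02 ± 0.10 SE, adjusted p = 6.77e-98), whereas in 6694c2 it was 1.53-fold lower (-0.61 ± 0.077, adjusted p = 3.95e-08). Jak1 was 1.60-fold lower with IFNβ in B16F10 (-0.68 ± 0.056, adjusted p = 5.34e-27), and in 6694c2 its difference of 0.12 (95% interval -0.02 to 0.25) was not called. Ifngr2 was less reduced by IFNβ, with differences of 0.22 ± 0.067 in B16F10 (adjusted p = 0.00994) and 0.26 ± 0.073 in 6694c2 (adjusted p = 0.00903). Those calls were lost without the third IFNγ library of B16F10 (adjusted p = 0.0801), and without the second IFNγ or the third IFNβ library of 6694c2 (adjusted p up to 0.129). The Cish call in B16F10 (0.65 ± 0.21, adjusted p = 0.0202) was lost without the second or the third library of either interferon, with adjusted p up to 0.247. The median log2 difference of the 10 genes was -0.30 in B16F10 and -0.14 in 6694c2, against 0.000 for all genes in both.

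With vehicle alone the lines differed in 9 of the 10 genes: 6 were higher in 6694c2 and 3 lower, where 28.7% of all genes were higher and 29.3% lower. The differences in Ifngr1 (8.11-fold), Socs3 (8.39-fold, log2 3.07 ± 0.11 SE, adjusted p = 2.88e-26), Jak2 (3.59-fold, log2 1.85 ± 0.077, adjusted p = 1.26e-23) and Socs1 (2.83-fold, log2 1.5 ± 0.26, adjusted p = 2.29e-06) were over 2-fold. Jak1 was 1.44-fold higher in 6694c2 (adjusted p = 5.66e-10) and Ifngr2 1.17-fold higher (adjusted p = 0.00442), a call that was lost without the first B16F10 vehicle library (adjusted p = 0.103). Both type I receptor chains and Tyk2 were lower in 6694c2, unlike Jak1: Ifnar2 by 1.73-fold (adjusted p = 2.97e-10), Ifnar1 by 1.38-fold (adjusted p = 1.72e-07) and Tyk2 by 1.3-fold (adjusted p = 0.000477). Cish did not differ by a called amount (log2 0.37, 95% interval -0.03 to 0.77, adjusted p = 0.111). The median log2 difference of the 10 genes was 0.44, against -0.006 for all genes.

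The difference between the lines in the change itself was tested as an interaction over the 24 libraries. For IFNγ, 4 of the 10 genes were called: 3 with a smaller log2 change in 6694c2 and 1 with a larger one, against 4.95% and 4.52% of all genes. On the log2 scale Socs3 differed most, with a change in 6694c2 minus B16F10 of -2.27 ± 0.14 (SE, adjusted p = 3.08e-16). Jak1 differed by -0.70 ± 0.085 (adjusted p = 7.64e-08), Jak2 by -0.46 ± 0.10 (adjusted p = 0.00198) and Cish by 1.77 ± 0.27 (adjusted p = 7.72e-06). All 4 calls were kept under all 20 other settings of the log2 test. Socs1, in contrast, had a difference of 0.25 (95% interval -0.34 to 0.84, adjusted p = 0.725), and Ifnar2 one of 0.20 (-0.04 to 0.44, adjusted p = 0.367).

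The sign of 2 of these differences depended on the scale, and for Socs3 the CPM difference was about the size of its SE. In CPM, a scale chosen after the values were seen and not tested, Socs3 rose by 45.7 ± 1.32 (SE) in B16F10 and by 50.7 ± 4.56 in 6694c2 with IFNγ, a difference of 4.99 ± 4.75 CPM. Jak2 rose by 26.8 ± 2.67 CPM in B16F10 and by 44.6 ± 6.10 CPM in 6694c2, a difference of 17.8 ± 6.66 CPM. The sign of the line difference thus turned for both genes. Jak1 and Cish kept their direction, with rises for Jak1 of 101.0 ± 4.04 CPM in B16F10 and 15.9 ± 9.31 CPM in 6694c2. On the CPM scale Cish changed by -0.923 ± 0.184 in B16F10 and by 5.25 ± 0.699 in 6694c2. Socs1 rose by 23.8 ± 1.34 CPM in B16F10 and 80.2 ± 3.12 CPM in 6694c2, where its fold change was not called as different.

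For IFNβ, none of the 10 genes was called as different between the lines by edgeR, against 6.16% of all genes with a larger and 5.90% with a smaller log2 change in 6694c2. One gene, Tyk2, had an unadjusted p under 0.05 (difference -0.35, 95% interval -0.61 to -0.09, adjusted p = 0.0703), and DESeq2 called 1 gene, also Tyk2 (the adjusted p was 0.0323 to 0.354 over all other settings). For the STING agonist, edgeR and DESeq2 called 0 of the 10 genes. By edgeR, without subtracting the other line's transcripts, 0.568% of all genes had a larger and 1.56% a smaller log2 change in 6694c2. Only Ifngr2 had an unadjusted p under 0.05 in edgeR's test (difference 0.21, 95% interval 0.01 to 0.41).

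**Figure D4:**
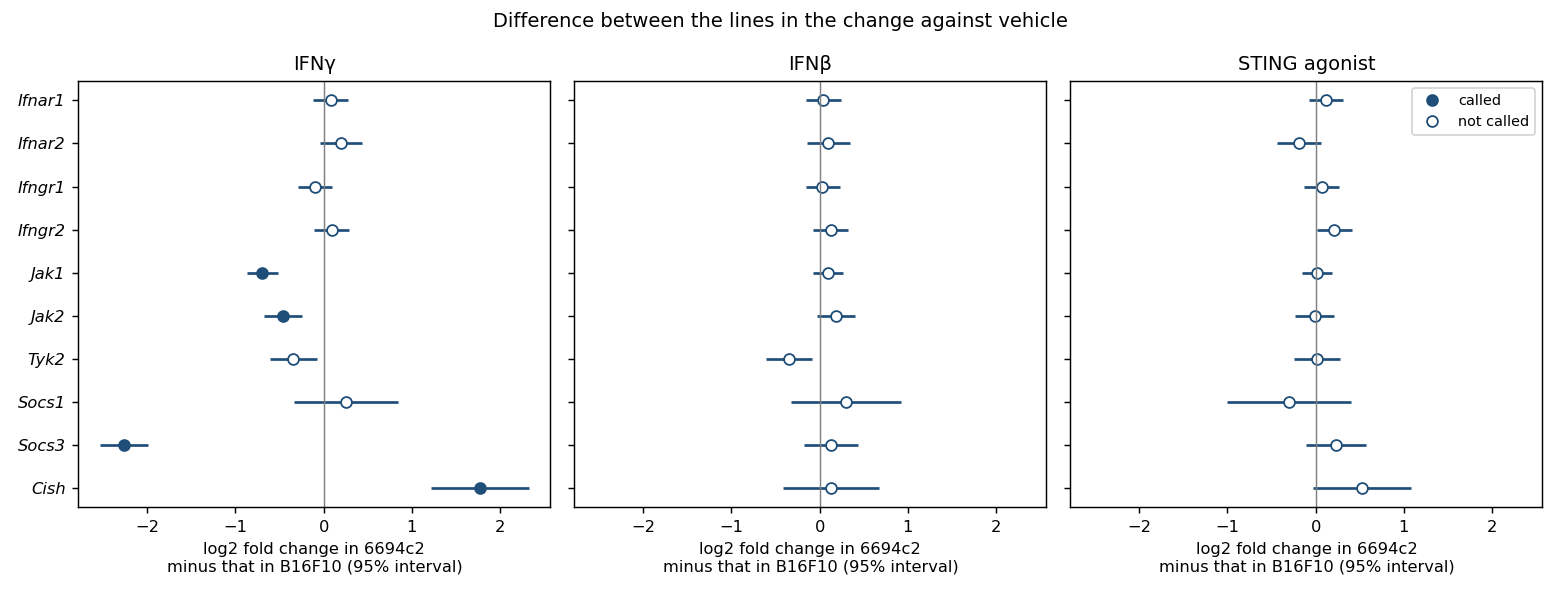
Log2 fold change against vehicle in 6694c2 minus that in B16F10 (horizontal axis, with 95% interval) for IFNγ, IFNβ and the STING agonist; filled points passed an adjusted p of 0.05 in edgeR's interaction test over the 24 libraries. Filled points are in the IFNγ panel, with Jak1 at -0.70, Jak2 at -0.46, Socs3 at -2.27 and Cish at 1.77. On the CPM scale the sign turned for Jak2 (17.8 ± 6.66 CPM, SE) and Socs3 (4.99 ± 4.75 CPM).

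The STING agonist was not followed by a called change in any of the 10 genes. In B16F10, where 1.93% of all genes rose and 1.53% fell, edgeR and DESeq2 called 0 of 10, and 2 genes (Ifnar2 and Socs1) had an unadjusted p under 0.05. Socs1 was at 1.43, 1.13 and 1.59 CPM, with its lowest library level with the highest vehicle library, and its log2 fold change was 0.54 (95% interval 0.02 to 1.05, adjusted p = 0.347). Ifnar2 was at 39.4, 41.2 and 37.4 CPM, all above vehicle, and its log2 fold change was 0.15 (0.00 to 0.30, adjusted p = 0.374). In 6694c2, where 0.203% rose and 0.156% fell, edgeR and DESeq2 called 0 of 10, and 1 gene (Cish) had an unadjusted p under 0.05, and its log2 fold change was 0.39 (0.04 to 0.74, adjusted p = 0.569). Ifngr2 in 6694c2 was at 89.8, 88.1 and 91.8 CPM, all above vehicle, at a log2 fold change of 0.12 (-0.03 to 0.26, adjusted p = 0.743). Over the 10 genes the 95% intervals ran from -0.57 to 1.05 in B16F10 and from -0.22 to 0.74 in 6694c2, so that changes of the size of the IFNγ rise in Socs1 lay outside them. The median log2 fold change of the 10 genes was -0.07 in B16F10 and 0.05 in 6694c2, against 0.000 for all genes. In the same B16F10 libraries, genes downstream of the receptors rose, among them Stat2 (1.04 ± 0.092, adjusted p = 1.99e-23) and Irf9 (0.39 ± 0.067, adjusted p = 2.45e-06).

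The rest of the pathway was taken from lists of genes by role. The counts for each list stand against the shares of all genes, which were 12% higher and 10.8% lower for IFNγ in B16F10, 7.89% and 5.66% for IFNγ in 6694c2, 12.7% and 11.2% for IFNβ in B16F10, and 10.4% and 7.86% for IFNβ in 6694c2. None of 10 interferon genes (Ifnb1, Ifng and Ifnk among them) passed the filter: 6 had no read in any of the 24 libraries and the highest, Ifnk, had 9 reads in all. Of 8 STATs and IRF9, 6 rose in B16F10 and 4 in 6694c2 after IFNγ, and 4 rose in each line after IFNβ, with Stat5a lower in B16F10. Stat3, which carries gp130 signals, rose with IFNγ by 2.09 ± 0.058 in B16F10 (log2, SE, adjusted p = 4.17e-127) and 2.18 ± 0.075 in 6694c2 (adjusted p = 2.79e-26), and by less with IFNβ (0.77 and 0.94).

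Of 20 other JAK and cytokine receptor genes tested (21 listed), 7 rose and 2 fell after IFNγ in each line, and 3 rose in B16F10 and 7 in 6694c2 after IFNβ. Il15ra, the high-affinity chain for IL-15, rose with IFNγ by 2.24 ± 0.30 in B16F10 (log2, SE, adjusted p = 6.08e-12) and 4.48 ± 0.31 in 6694c2 (adjusted p = 1.86e-15). Osmr, the oncostatin M receptor, rose from 5.19 to 10.4 mean CPM in B16F10 (adjusted p = 6.15e-11) and from 0.175 to 3.0 mean CPM in 6694c2 (adjusted p = 1.02e-09). Il13ra1, a chain of the IL-13 receptor, rose in 6694c2 by 2.60 ± 0.096 with IFNγ and 1.68 ± 0.097 with IFNβ.

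Calls among the other 5 SOCS genes were mostly decreases. Socs2, which limits growth hormone signals, fell with IFNγ by 2.05 on the log2 scale in B16F10 (adjusted p = 1.84e-15) and by 0.86 in 6694c2 (adjusted p = 0.00629). Socs5 and Socs6 were lower in 6694c2 after IFNγ (-0.26 and -0.25), and Socs4 was the sole riser, in B16F10 (0.27 after IFNγ, adjusted p = 0.0199, and 0.26 after IFNβ, adjusted p = 0.025). Of 5 genes for partners of the SOCS box in its ubiquitin ligase, 2 fell after IFNγ and 3 after IFNβ in B16F10, and 1 after each in 6694c2. Rnf7, a RING subunit, was lower in all 4 comparisons, with log2 fold changes of -0.26 to -0.50.

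Of 16 genes listed as other negative regulators, 4 rose and 3 fell in B16F10 and 4 rose in 6694c2 after IFNγ. After IFNβ, 5 rose and 2 fell in B16F10, and 4 rose and 1 fell in 6694c2. The risers included Usp18, Nmi and Isg15, the gene of the treatment check, in each line with each interferon. Isg15 served above as an interferon-response gene, so these counts are not read as a result about inhibitors. Usp18, which blocks the type I receptor at IFNAR2, showed the opposite preference to Socs1. It rose by 2.09 ± 0.058 with IFNγ and 4.12 ± 0.061 with IFNβ in B16F10, and by 3.55 ± 0.15 and 8.32 ± 0.13 in 6694c2 (log2, SE). Its level was higher with IFNβ than with IFNγ by 2.03 ± 0.055 in B16F10 (adjusted p = 5.12e-130) and 4.76 ± 0.095 in 6694c2 (adjusted p = 1.25e-34). Calls among receptor turnover genes were near the shares of all genes for IFNγ in B16F10, and nothing is read from their number in any comparison. Of 12 such genes, 2 rose and 1 fell in B16F10 and 3 rose and 1 fell in 6694c2 after IFNγ, and 1 rose and 3 fell, and 3 rose, after IFNβ. The kinase gene Prkd2, whose product marks IFNAR1 for uptake, rose in 6694c2 by 1.33 ± 0.11 with IFNγ (adjusted p = 1.04e-13) and 1.11 ± 0.11 with IFNβ (adjusted p = 2.19e-11). With the STING agonist, Usp18 (1.15 ± 0.058), Isg15 and Nmi rose and Sh2b3 fell in B16F10.

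Genes with the most similar pattern were looked for over the 24 libraries, among 10483 genes. Pearson's r was taken on log2(CPM + 1) after subtracting the vehicle mean of each line. The libraries share their groups, so r is a description. Socs1 was most like Batf2 (r = 0.990), Gm12216 (0.990) and Stat3 (0.988). Batf2, a transcription factor gene, went from 0.326 to 67.1 CPM with IFNγ in B16F10 and from 0.928 to 140.8 CPM in 6694c2, and reached 3.34 and 11.1 CPM with IFNβ. Socs3 was most like Bcl6 (0.988), Rnf115 (0.975) and F830016B08Rik (0.973). Bcl6, a transcriptional repressor, went from 2.12 to 19.2 CPM in B16F10 and from 12.8 to 24.9 CPM in 6694c2 with IFNγ and, like Socs3, was higher in 6694c2 than in B16F10 with vehicle. Jak2 was most like Ttc39b (0.985), Sipa1l1 (0.973) and BC023105 (0.967), and Cish most like Tmem176b (0.907), Creg1 (0.904) and Raph1 (0.892). Among the 10 genes themselves, Socs1 was closest to Ifnar2 (0.967) and most opposed to Ifngr2 (-0.840), and Socs3 was closest to Jak2 (0.948) and Jak1 (0.943).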

How the data were processed

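PolyA RNA from 24 libraries was sequenced, and the authors deposited whole-number counts of reads per gene for each library. Per the study's methods and the submitters' processing notes, reads were trimmed with cutadapt, aligned with STAR and counted with Rsubread. The notes list the build mm10. Strand and multi-mapping settings and the annotation release are not given in the sources used here. Of 49315 Ensembl genes, 48970 had a symbol in the reference table of gene names, and 91.36% of positions were the same as in GENCODE M21.

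Genes whose reads summed to 10 or more across the 24 libraries entered the tests. The counts were tested with edgeR 4.0.16 (TMM, quasi-likelihood test, R 4.3.3) with Benjamini-Hochberg adjustment over 21138 genes. Comparisons within a line used its 12 libraries, and those between lines and the interactions all 24. In B16F10 the prior degrees of freedom were 400, so that its p-values rest on a spread shared across genes. DESeq2 1.42.0, other size factors, no filter, other sets of libraries, a replicate block and leaving out each library were alternatives. The steps were tested on simulated data. Replicates differed by more than sampling noise (chi-square per degree of freedom 3.09 to 22.4), so that none was counted as a duplicate.

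The 10 genes and all lists were chosen with earlier results of these data known. Named genes were the 10 genes, up to 4 genes of each list with the largest change among those called, and the 3 genes most like Socs1, Socs3, Cish and Jak2. Promoter windows came from RefSeq. The 6 single-cell samples of the series were not analysed here. Some items of the study are not reported here.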

Additional observations from a re-analysis of the deposited data

Results flagged for a closer look

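For 4 of the 10 genes, the log2 change with IFNγ differed between the lines by edgeR's interaction test over the 24 libraries. The difference, 6694c2 minus B16F10, was -0.70 for Jak1, -0.46 for Jak2, -2.27 for Socs3 and 1.77 for Cish. On the CPM scale, chosen after the values were seen, the sign turned for Jak2 and Socs3. The Socs3 difference on that scale, 4.99 ± 4.75 CPM, was about the size of its SE. Groups of 3 libraries were too small for a search for outlying libraries.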

How the results depend on the processing

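Over 120 pairs of gene and comparison, 1940 values from alternative settings of the log2 test kept their direction wherever a call was made, 1911 with the same call, 23 with a call lost and 6 with one gained. Of 49 calls, 41 were kept throughout, and the lost ones are named beside their results. The number of the 10 genes called was within 1.5 times the main count in all comparisons except the IFNβ difference between the lines, where DESeq2 called 1 instead of 0, and leaving out a library gave 0 to 1, with 1 (Tyk2) without the first B16F10 IFNβ, the second 6694c2 vehicle, or the second or the third 6694c2 IFNβ library. The cause was not tested. As a difference of mean CPM, added after seeing the data, the IFNγ difference between the lines turned to 17.8 ± 6.66 CPM (SE) for Jak2. For Socs3 it turned to 4.99 ± 4.75 CPM. Deviations of same-numbered libraries from their group means had an r of -0.146 to 0.185 in B16F10 and -0.276 to 0.243 in 6694c2. With groups of 3 libraries, this check cannot show whether the numbers pair them. A replicate block left 7 genes called for IFNγ in B16F10 and 6 in 6694c2 and changed no other call among the 10 genes. Among all genes it raised the calls for the STING agonist in 6694c2 from 43 higher and 33 lower to 82 and 44. With 15543131 or more reads per library, Socs1 in B16F10 vehicle and Cish were the genes with the fewest reads and the widest intervals.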

Other observations

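Several genes within 100 kb of the 10 genes moved with the interferons. Cd274, which encodes the checkpoint ligand PD-L1 and lies near Jak2, rose with IFNγ by 4.86 ± 0.10 in B16F10 (log2, SE, adjusted p = 2.37e-168) and 5.89 ± 0.15 in 6694c2 (adjusted p = 7.89e-32), far more than Jak2 itself (1.03 and 0.59). With IFNβ it rose by 3.28 ± 0.11 and 4.22 ± 0.16. Plgrkt, a plasminogen receptor gene in the same interval, rose by 0.23 to 0.60 in the 4 interferon comparisons.

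Pgs1, a phospholipid synthesis gene near Socs3, rose with IFNγ by 1.27 ± 0.059 in B16F10 (adjusted p = 1.14e-67) and 0.71 ± 0.077 in 6694c2 (adjusted p = 8.37e-10). Icam1, an adhesion molecule gene near Tyk2, rose with IFNγ by 2.25 ± 0.081 in 6694c2 (adjusted p = 1.36e-25), where Tyk2 was at -0.09. Il10rb, the receptor chain gene between Ifnar2 and Ifnar1, fell with IFNγ in B16F10 by 0.26 (log2 fold change -0.26 ± 0.068, adjusted p = 0.000974), while Ifnar2 rose. These neighbours were picked from the list after their values were seen.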
